A study of Mus musculus with 5 samples.

Results

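The inactive and active X chromosomes of the same cells were compared CpG by CpG and gene by gene. Positions were kept by strand, so a CpG read on both strands could enter more than once. A CpG position on the X entered when both alleles had at least 10 methylation calls in each of the 3 Female control libraries, and 1599 of the 28790 X positions with any call in those libraries did so. Across all chromosomes 90428 positions met the rule, of which 88829 were autosomal and served as background. The 45 X positions whose lowest count was 10 had 57.5% mC on the Xi and 38.0% on the Xa, and the 45 left out with a lowest count of 9 had 72.7 and 49.6%. Of the X positions, 549 lay within 1 kb of a start site and fell in the promoters of 100 genes, and 68 of these genes had at least 3 positions and were tested. Another 944 X positions lay over 5 kb from every start site.

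Fibroblasts (MEFs) were grown from female E13.5 mouse embryos of 129/C57 mothers crossed with castaneus (CAST) fathers, and DNA methylation (mC) was read by enhanced reduced representation bisulphite sequencing, which samples CpG-rich DNA. All libraries carried the Xist-deltaA mutation on the maternal domesticus X, which leaves the castaneus X as the inactive one (Xi) and the domesticus X as the active one (Xa). The Female control libraries were Setdb1+/+ and had received the Nonsilencing hairpin. The 2 Setdb1 depleted libraries carried a gene trap in 1 copy of Setdb1 and had received a Setdb1 hairpin, which means that genotype and hairpin changed at once. Because the Xi is always paternal and castaneus, inactivation, parental origin and strain cannot be told apart on the X alone. No expression was measured in these libraries, so the labelled cell type was not checked against markers. The labels number the replicates but do not say that they came from separate embryos, so exact permutation p-values measure the spread between these samples. Model p-values rest largely on counts of calls and on a dispersion shared across features.

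In female mammals one X is silenced in each cell by the Xist RNA and is then covered by repressive chromatin. DNA methylation of CpG islands, the CpG-rich stretches at many promoters, is a late layer of that silencing and helps to keep it. Some genes escape silencing and stay expressed from the Xi. Methylation away from promoters is common on both X chromosomes.

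The sequences below are shown because they hold the CpGs that mark the range of patterns found. Each is read 5′ to 3′ on the gene's strand from the GRCm38 (mm10) reference, contains no exon, and has the measured CpGs in capitals. The first is upstream of Ddx3x, an RNA helicase gene known to be expressed from the Xi, at chrX:13280824-13280855 on the plus strand. The second is upstream of Utp14a, a ribosome biogenesis gene, at chrX:48256766-48256856 on the plus strand. The third is upstream of Htatsf1, a splicing-associated gene, at chrX:57053470-57053578 on the plus strand. The fourth is in the first part of Acot9, a mitochondrial acyl-CoA thioesterase gene, in an intron at chrX:155262726-155262773 on the plus strand. The last is in an intron of Firre, a noncoding RNA gene, at chrX:50623167-50623212 on the minus strand.
Ddx3x: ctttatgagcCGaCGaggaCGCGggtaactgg
Utp14a: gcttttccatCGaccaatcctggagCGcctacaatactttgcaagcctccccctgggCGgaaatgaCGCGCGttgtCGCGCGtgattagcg
Htatsf1: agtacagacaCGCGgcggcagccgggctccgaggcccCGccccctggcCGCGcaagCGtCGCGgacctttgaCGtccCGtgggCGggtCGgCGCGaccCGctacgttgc
Acot9: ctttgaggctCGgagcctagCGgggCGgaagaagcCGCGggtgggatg
Firre: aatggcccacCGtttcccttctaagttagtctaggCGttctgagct

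The files held 119431 to 174461 X calls per library and allele. The median position had 31 to 36 calls on the Xi and 40 to 42 on the Xa in the control libraries. Calls made on 1 read are not independent molecules of evidence, so every interval or upper limit here covers counting error only.

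Promoter CpGs carried far more methylation on the Xi than on the Xa. Over the 549 positions within 1 kb of a start site, the Xi had 50.2, 47.9 and 46.4% mC in the 3 control libraries and the Xa had 5.42, 5.43 and 5.12%. The alleles did not overlap. Xi minus Xa was 42.8 percentage points ± 1.78 (SD, n = 3), positive in 3 of 3 libraries, with p = 0.25 when signs were flipped exactly over libraries (two-sided permutation test), the smallest p that 3 libraries allow. At autosomal positions within 1 kb of a start site, castaneus had 3.79% ± 0.0557 and domesticus 3.86% ± 0.0716 mC (SD, n = 3). The X difference exceeded the autosomal one in 3 of 3 libraries, by 42.9 points, again with the smallest exact permutation p of 0.25.

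The gap between the alleles spanned both sides of the start site and closed with distance. It was 41.0 points ± 2.09 (SD, n = 3) at 221 positions within 100 bp, 46.1 ± 2.16 at 130 positions 250 to 500 bp away, and 33.6 ± 0.714 at 38 positions 500 to 1000 bp away. At 44 positions 1 to 2 kb away it was 18.6 points ± 0.885, where the Xa stood at 37.9% ± 1.47 mC. Beyond 2 kb the 2 alleles were both methylated, at 69.6% ± 1.53 on the Xi and 68.6% ± 0.847 on the Xa over 62 positions 2 to 5 kb away. Upstream positions within 1 kb had 44.0% ± 2.21 on the Xi and downstream positions 50.7% ± 1.85, beside 3.41% ± 0.325 and 6.50% ± 0.285 on the Xa. The genes in each bin differ, so neighbouring bins are not the same promoters at 2 distances.

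**Figure D1:**
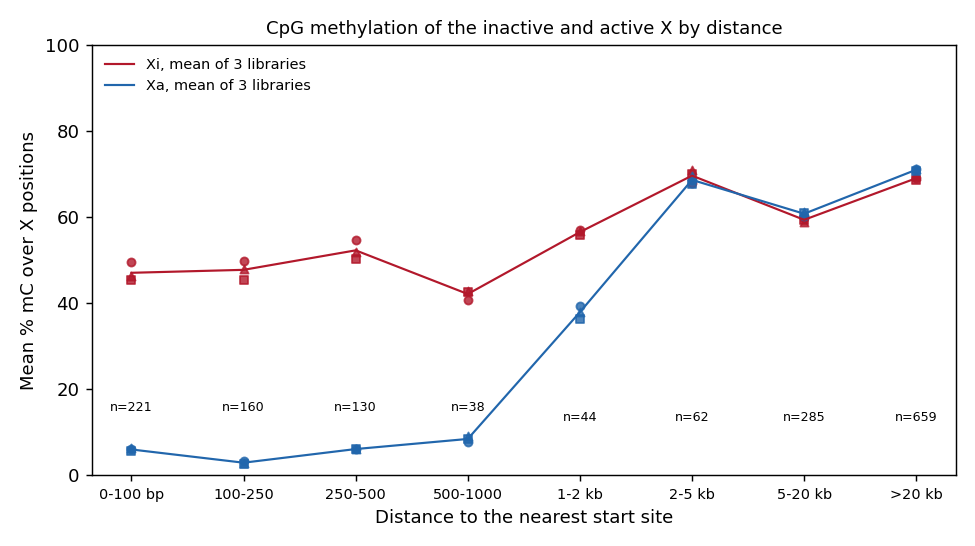
Mean % mC over X positions (y axis) by distance to the nearest start site (x axis), for the Xi in red and the Xa in blue, with a marker for each of the 3 control libraries, a line through their mean and the number of positions in each bin. The Xi lies between 42.1 and 52.2% within 1 kb, where the Xa lies between 2.96 and 8.47%, and the lines meet beyond 2 kb.

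Far from start sites the order of the alleles was the opposite. Over the 944 positions more than 5 kb away, the Xi had 66.2, 66.4 and 65.7% mC and the Xa 67.8, 68.1 and 67.7%. The Xi was lower in 3 of 3 libraries, with a difference of -1.80 points ± 0.226 (SD, n = 3) and the smallest exact permutation p of 0.25. Without control replicate 2 the difference was -1.08 points. Autosomal positions at that distance differed by 0.0403 points ± 0.0775 between castaneus and domesticus. By annotation, 596 of the far X positions were intergenic, with 71.8% ± 0.215 on the Xi against 74.7% ± 0.203 for the Xa. The 244 intronic ones had 48.8% ± 1.35 and 48.2% ± 0.56, and the 41 in coding exons had 85.1% ± 2.96 and 87.3% ± 0.576, both differences being within their spread between libraries. The 53 in noncoding exons had 67.5% ± 2.15 and 73.4% ± 1.48. The 10 in UTR exons had 63.2% ± 1.60 for the Xi against 35.0% ± 1.14 for the Xa, a gap carried by 5 positions of Arhgap6, with 60.4% ± 4.29 against 0.556% ± 0.962. The other 5 UTR positions had 66.0% ± 3.57 against 69.4% ± 3.18.

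Per promoter, 62 of the 68 tested X genes were higher on the Xi at an adjusted p of at most 0.05 and 0 were lower, by a quasi-binomial model of the calls with library as a block and limma-moderated dispersion. At an unadjusted p under 0.05 the lower count was also 0, and limma on log ratios of the calls gave 57 higher and 0 lower. Among 5033 autosomal promoters in the same fit, 0.854% were called higher on castaneus and 1.03% lower. Every Xi value exceeded every Xa value in 62 of the 68 tested promoters. These were the 62 called ones, and the calls used the same values, so the separation is not further evidence. Their Xi minus Xa had a median of 48.7 points and ran from 4.06 to 77.8, and 58 of them had less than 5% mC on the Xa.

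Intermediate levels were the rule on the Xi. Of the 68 promoters, 5 had under 10% mC, 2 had 10 to 20%, 14 had 20 to 40%, 30 had 40 to 60%, 14 had 60 to 80% and 3 had over 80%. Position by position, 416 of the 549 promoter positions, or 75.8%, had a mean of 20 to 80% on the Xi, and 508, or 92.5%, were under 10% on the Xa. The levels repeated between libraries, with a median SD of 5.24 points over the called promoters.

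**Figure D2:**
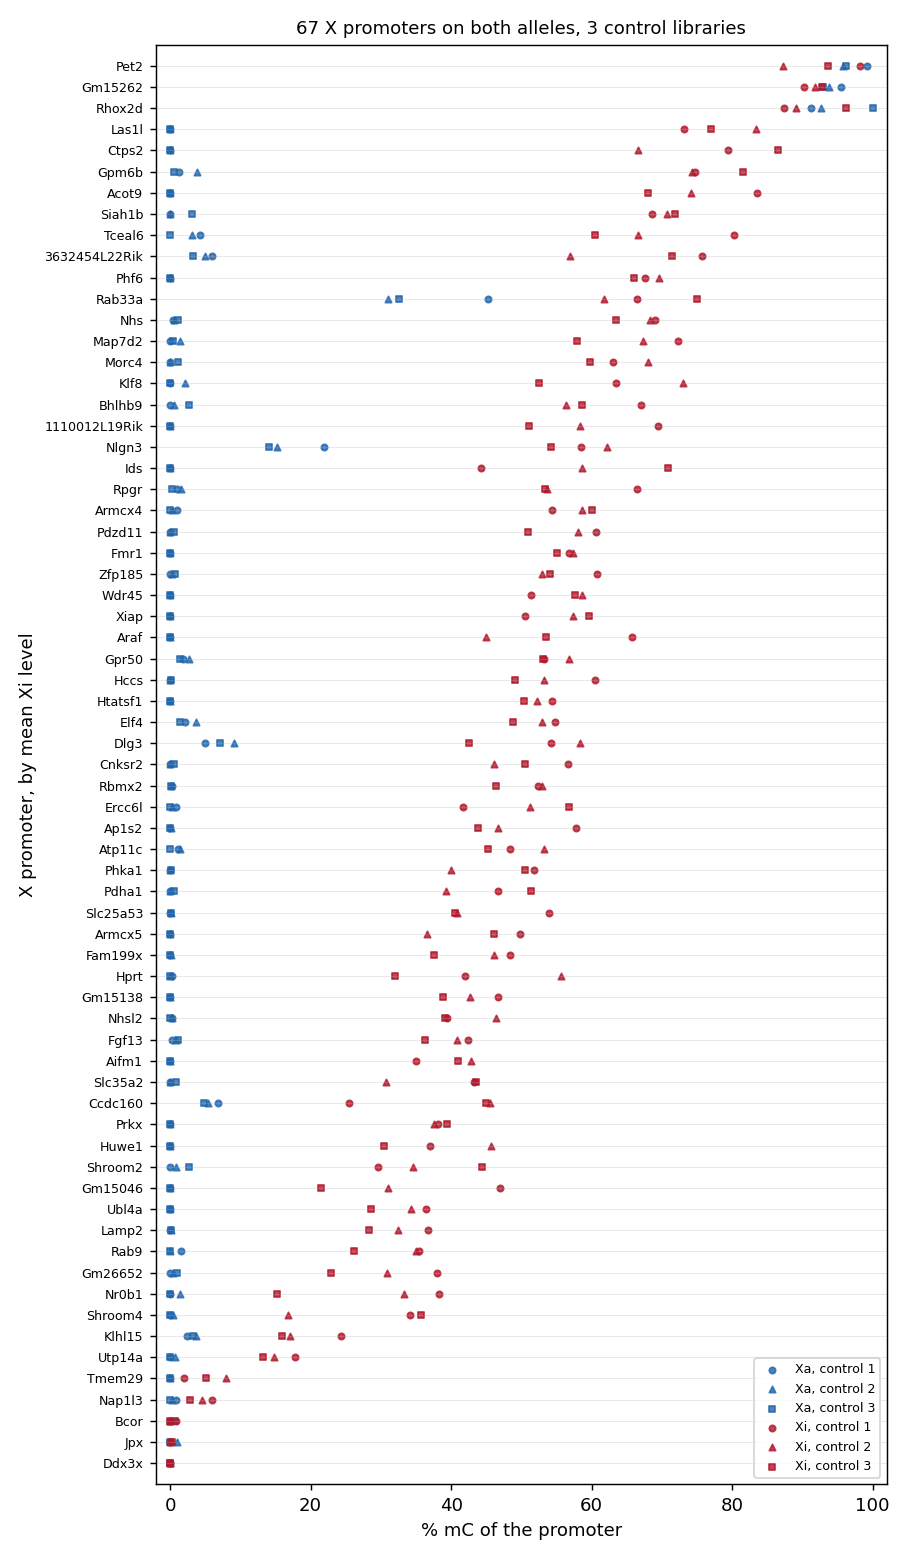
% mC of 67 of the 68 tested X promoters (x axis), ordered by the mean Xi level (y axis), with Xi in red and Xa in blue and a marker shape for each control library. Most Xa markers sit near 0%, the Xi markers spread from 0 to over 80%, and Pet2, Gm15262 and Rhox2d at the top are high on both alleles.

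The promoters with the largest allele difference were almost bare on the Xa. Las1l, a ribosome biogenesis gene, had 73.1, 83.3 and 77.0% mC on the Xi, with 0% on the Xa in each library (adjusted p = 1.93e-07 by the limma-moderated model). It rested on 3 positions and as few as 30 Xi calls per library. Ctps2, a CTP synthase, had 79.4, 66.7 and 86.5% on the Xi and 0% on the Xa (adjusted p = 2.02e-08). It rested on 4 positions and as few as 52 Xi calls per library. In both genes the alleles were clear of overlap, and the Xi of Ctps2 varied more between libraries than that of Las1l.

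Acot9, whose sequence is shown above, had 83.5, 74.1 and 68.0% on the Xi and 0% on the Xa (adjusted p = 1.74e-10). Gpm6b, a neuronal membrane glycoprotein gene, had 74.7, 74.2 and 81.5% on the Xi and 1.28, 3.83 and 0.556% on the Xa (adjusted p = 1.70e-08). Acot9 and Gpm6b rested on 5 and 3 positions, with as few as 75 and 54 Xi calls per library. Phf6, a chromatin-associated zinc finger gene mutated in leukaemia, had 67.6, 69.6 and 66.1% on the Xi over 8 positions, and 0% on the Xa (adjusted p = 1.80e-14). Phf6 was among the most repeatable, with an SD of 1.78 points on 362 to 489 Xi calls. The remaining genes of the 10 largest differences were Siah1b, Tceal6, Nhs, Map7d2 and 3632454L22Rik, with differences of 63.3 to 69.4 points. Siah1b, the largest of these, rested on 3 positions and as few as 70 Xi calls per library.

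The tested genes long used as examples of silencing ranked 16 to 29 of the 68 from the lowest Xi level, below the median of 50.8%. Of 17 such genes listed, 4 were tested and all 4 were higher on the Xi, beside 62 of all 68 promoters (91.2%), with a median of 44.5% mC on the Xi and 0.0808% on the Xa. Hprt, the purine salvage enzyme used as a selectable marker, had 42.0, 55.7 and 32.1% on the Xi and 0.314, 0 and 0% on the Xa (adjusted p = 2.00e-09). Huwe1, a ubiquitin ligase gene, had 37.0, 45.7 and 30.5% on the Xi and 0% on the Xa (adjusted p = 2.04e-06). Pdha1, a pyruvate dehydrogenase subunit, had 45.8% ± 6.08 (SD, n = 3) on the Xi, and Phka1, a phosphorylase kinase subunit, had 47.4% ± 6.50.

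Of 25 chromatin and transcription regulators listed, 4 were tested and 3 were higher on the Xi, Phf6 and Elf4 among them, again beside 91.2% of all promoters. Elf4, an ETS transcription factor gene, had 54.8, 52.9 and 48.8% on the Xi beside 2.07, 3.62 and 1.35% on the Xa (adjusted p = 1.38e-12). Bcor, which was not called, is described next. None of the 18 energy metabolism and ribosome genes listed had 3 positions, although Prps2, a nucleotide synthesis enzyme with 2 positions, had 67.0% on the Xi and 0% on the Xa there, and 6.12% ± 1.76 (SD, n = 3) over all 10 positions that met the minimum on the Xa.

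A small group of promoters had little methylation on either allele. Ddx3x had 0% mC on both alleles in each library, in 172 to 175 Xi calls, which allows up to 1.74% on the Xi in the shallowest library. Jpx, a noncoding RNA gene of the X inactivation centre that activates Xist, had 0, 0 and 0.227% on the Xi and 0, 1.01 and 0% on the Xa over 10 positions. Bcor, a BCL6 corepressor gene, had 0.870, 0 and 0% on the Xi and 0, 0 and 0.694% on the Xa. Its 4 positions lay 593 to 615 bp downstream of a start site, and the promoter held no nearer position that met the minimum. That start site, at 12080553 on the minus strand, lay inside the gene, whose introns reached at least 12159078. The levels of Bcor here thus do not describe a start site at the gene's 5′ end. None of the 3 was called between the alleles (adjusted p = 1 for each by the limma-moderated model), and their Xi levels were all under 1%.

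Just above them stood 2 promoters that were called but by a few points only. Nap1l3, a nucleosome assembly gene, had 5.91, 4.49 and 2.89% on the Xi and 0.885, 0.210 and 0% on the Xa (adjusted p = 0.0162). Tmem29 had 2.01, 7.89 and 5.18% on the Xi and 0% on the Xa (adjusted p = 0.00147). The call of Tmem29 was lost without control replicate 2 (adjusted p = 0.104), and that of Nap1l3 without control replicate 2 or 3 (0.176 and 0.179).

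Utp14a had 17.8, 14.8 and 13.2% on the Xi and 0, 0.716 and 0% on the Xa (adjusted p = 2.77e-06). Klhl15, a ubiquitin ligase adaptor gene, had 24.4, 17.0 and 15.9% on the Xi and 2.41, 3.66 and 3.23% on the Xa (adjusted p = 0.000258). Both were called, at less than 20% on average on the Xi, and the call of Klhl15 was lost with limma on log ratios (adjusted p = 0.156). Of the 13 genes listed as expressed from the mouse Xi, 3 were tested: Ddx3x and Jpx were not called and Utp14a was, beside 91.2% of all 68 promoters. Another listed gene, Mid1, had 2 positions and is given below with the untested genes. The median of the 3 was 0.0758% on the Xi, and the members were chosen with earlier results of these data known.

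The last group was methylated on both alleles. Rhox2d, a homeobox gene of the reproductive tract that belongs to a cluster of near-identical copies, had 87.3, 89.1 and 96.2% on the Xi and 91.2, 92.6 and 100% on the Xa. Gm15262 had 91.6% ± 1.33 and 94.1% ± 1.32 (SD, n = 3), and Pet2 had 93.0% ± 5.45 and 97.1% ± 1.87. None of these was called (adjusted p = 1 for each by the limma-moderated model), and how reads divide among Rhox copies was not tested. Of 99 germline and testis genes listed, Rhox2d was the one with at least 3 positions. A pair of others had fewer and were not tested: Tex13a had means of 87.7% on the Xi and 67.6% on the Xa at 1 position, and Xlr3a had 74.1 and 53.5% at 2.

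On the Xa, 2 of the called promoters stood above 10%. Rab33a, a small GTPase gene, had 66.4, 61.8 and 75.0% on the Xi beside 45.2, 31.0 and 32.6% on the Xa (adjusted p = 0.0128). Nlgn3, a synaptic adhesion gene, had 58.5, 62.2 and 54.2% beside 22.0, 15.2 and 14.0% (adjusted p = 2.75e-07). The call of Rab33a was lost without control replicate 2 or 3 (adjusted p = 0.0958 and 0.265), and with limma on log ratios the calls of Rab33a and Nlgn3 were both lost (0.372 and 0.134).

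Of the 68 promoters, the Xi varied most between libraries at Ids, an iduronate sulphatase gene, with 44.3, 58.6 and 70.9% on the Xi, and at Gm15046, with 47.0, 31.1 and 21.4%. Nr0b1, a nuclear receptor gene of the adrenal gland, had 38.3, 33.3 and 15.2%, and Ccdc160 had 25.5, 45.5 and 44.9%. These 4 and Hprt had SDs of 11.4 to 13.3 points. The library order differed among these genes, and Nr0b1 and Ids rested on as few as 30 and 55 Xi calls per library. Over all 68 promoters, control replicate 1 was the highest on the Xi in 33 and control replicate 3 the lowest in 37.

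Promoters were classed by their richest 500 bp window, with 36 of high, 27 of intermediate and 5 of low CpG content. Medians on the Xi were 47.7, 52.1 and 69.1% mC, and 33, 25 and 4 promoters were called, beside 91.2% of all 68. Ddx3x, Jpx and Bcor were all of the high class, the class that also held Phf6 and Nhs at 67.8 and 66.9%.

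A further 32 genes had 1 or 2 promoter positions and were not tested. Of these, 24 were over 20 points higher on the Xi and 1 was over 20 points lower, with medians of 53.5% (Xi) and 1.42% (Xa). The lower one was Mid1, a microtubule-associated ubiquitin ligase gene on the list of genes expressed from the Xi, with 73.7, 67.6 and 57.0% on the Xi and 83.5, 100 and 83.3% on the Xa at 2 positions. The 2 positions lay at -10 and 75 bp from a start site, the second in a coding exon of Mid1. Whether that start site is the gene's 5′ end was not tested. Over all 5 Mid1 positions that met the minimum on the Xa, that allele had 39.9, 56.4 and 48.5%. The order of the alleles at the 2 positions thus cannot be taken for the promoter. Cdx4 of the X inactivation centre had 5.56, 26.1 and 27.3% on the Xi at 1 position with as few as 18 calls. Zcchc13, from the same region, had 82.9% on the Xi and 94.8% on the Xa.

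Neighbouring CpGs of a promoter differed among themselves on the Xi. In the 49 called promoters with at least 5 positions, the lowest and highest positions were a median of 48.9 points apart, from 11.4 at Tmem29 to 89.6 at Ap1s2. The SD between positions had a median of 17.3 points and was larger than the mean SD between libraries in 39 of 49. In the Htatsf1 sequence above, position -25 from the start site had 100, 75.0 and 83.7% mC on the Xi and position -20 had 18.2, 8.33 and 41.9%, with a mean of 22.8% that was 13.3% without control replicate 3. At Acot9 the position at 308 bp had 100, 88.2 and 100%, and the one at 320 bp had 70.6, 23.5 and 6.67%, with a mean of 33.6% that was 15.1% without control replicate 1. Utp14a had means of 5.57% at -86 and 30.4% at -16. Single positions had as few as 15 calls per library at Acot9.

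**Figure D3:**
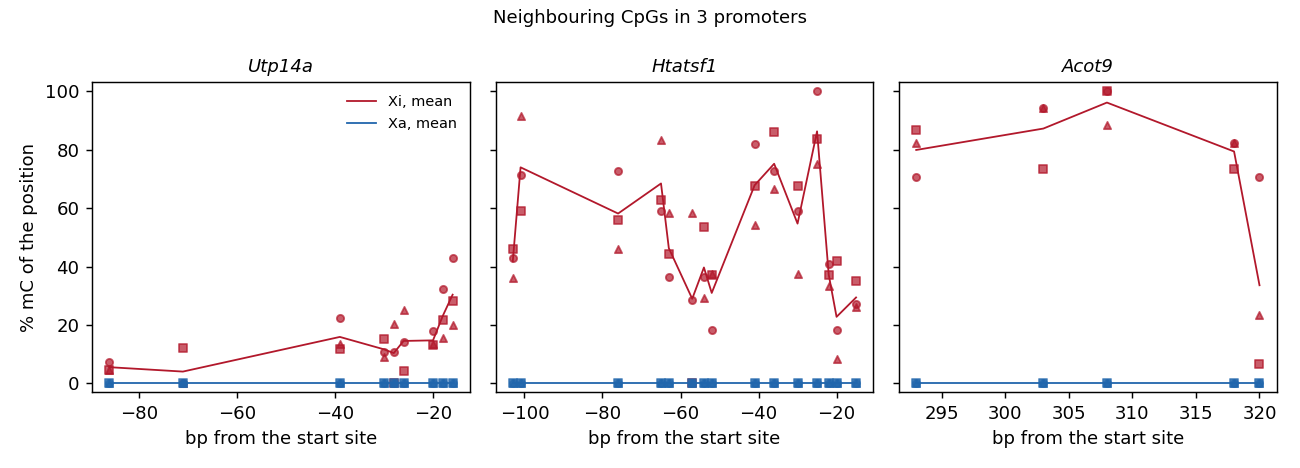
% mC of each measured CpG (y axis) against its distance from the start site in bp (x axis) in the Utp14a, Htatsf1 and Acot9 sequences, with Xi in red, Xa in blue, a marker shape for each control library and a line through their means. The Xa stays at 0% throughout while the Xi moves between 22.8 and 86.2% within the Htatsf1 stretch.

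Single reads showed whether intermediate levels came from fully methylated and bare molecules or from molecules with both kinds of call. Reads with at least 4 calls at promoter positions numbered 2021 to 2440 per control library on the Xi and 2994 to 3357 on the Xa. On the Xi, 78.2, 74.1 and 74.4% of reads held both methylated and unmethylated calls, and on the Xa 4.50, 4.98 and 5.08% did. The difference was 70.7 points, positive in 3 of 3 libraries, with the smallest exact permutation p of 0.25. Reads with every call methylated made up 6.10% ± 0.964 (SD, n = 3) of Xi reads and 1.49% ± 0.388 of Xa reads, a difference of 4.61 points (exact permutation p = 0.25) that was 9.19 points with at least 3 calls per read, 2.89 with at least 6, and 3.07 with more than 20 calls per position. Reads with no methylated call made up 18.3% ± 3.24 and 93.7% ± 0.117.

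If the calls of a read were unrelated to each other, the levels of the positions would give 81.3% ± 1.42 mixed reads on the Xi. There, 75.6% ± 2.28 were counted. On the Xa that product was 5.52% ± 0.525, and 4.85% ± 0.311 were counted. The levels alone thus give a wide gap between the alleles in mixed reads. Fully methylated Xi reads were 6.10% against 4.46% by the product, and bare Xi reads 18.3% against 14.2%. Mixed reads were fewer than the product in 3 of 3 libraries on both alleles, and on the Xi they were still the large majority. In promoters at 20 to 80% on the Xi, 28.1 to 33.2% of the mixed reads were a single call away from being all methylated or bare.

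**Figure D4:**
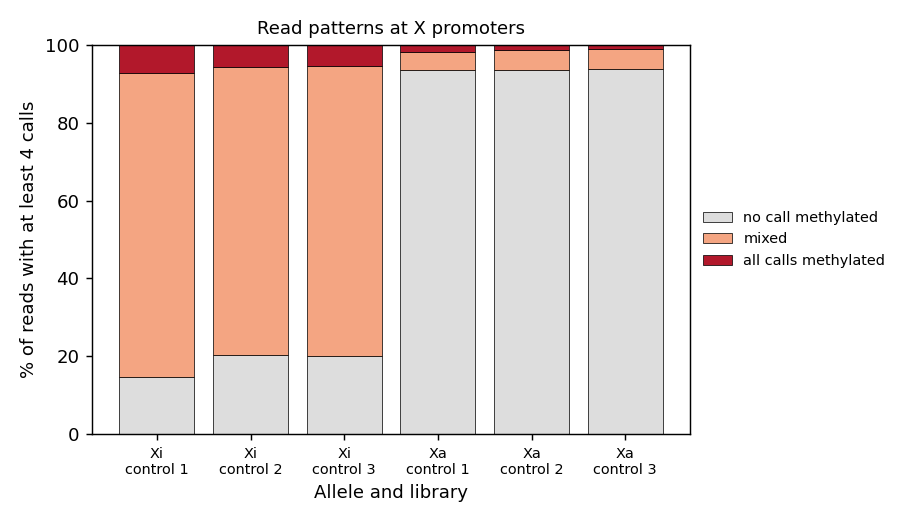
Share of reads with at least 4 calls at X promoters (y axis, %) that had no methylated call, both kinds or only methylated calls, for each allele and control library (x axis). Mixed reads fill 74.1 to 78.2% of the Xi bars and 4.50 to 5.08% of the Xa bars.

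Gene by gene, 47 of the 55 promoters with such reads in each library had over 50% mixed reads on the Xi, and 8 did not. Mixed reads were below the product in 47 of the 55, above it in 6 and within 0.01 points of it in 2. Among the 8, the product was itself 46.2% or less, apart from Utp14a, where it was 75.9% ± 7.4 (SD, n = 3). Nhs, an actin regulator gene mutated in Nance-Horan syndrome, had 95.4% ± 4.1 mixed reads on the Xi (SD, n = 3), none bare and 4.6% ± 4.1 fully methylated. Fgf13, a fibroblast growth factor family gene, had 94.8% ± 3.7 mixed, and Htatsf1 had 90.7% ± 6.0 mixed with reads of up to 14 calls. Lamp2, a lysosomal membrane protein gene, differed, with 41.7% ± 11.5 bare reads and 55.0% ± 11.4 mixed. Its levels differed too, as the product gave 62.3% ± 8.0 mixed reads there, beside 96.1% ± 1.1 for Nhs and 98.3% ± 0.4 for Fgf13. Ubl4a, a ubiquitin-like protein gene, had 29.3% ± 3.7 bare and 67.9% ± 7.6 mixed, where the product gave 79.0% ± 3.9 mixed. On the Xa these genes had 94.4% or more bare reads. The 8 promoters at 50% or less were Utp14a, with 49.1% ± 11.1 mixed and 50.9% ± 11.1 bare Xi reads, Nap1l3, with 25.8% mixed, and Tmem29, with 19.7% mixed, beside Bcor, Ddx3x and Jpx, whose Xi reads were 98.8% or more bare, and Gm15262 and Pet2, whose Xi reads held 54.3 and 77.6% fully methylated ones.

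Away from promoters, positions over 1 kb from every start site were joined into 137 X clusters of at least 3 positions, a family added after the first values had been seen. Of these, 22 were higher on the Xi (16.1%) and 18 lower (13.1%) at an adjusted p of at most 0.05 by the same model. Among 5134 autosomal clusters, 3.72% were higher on castaneus and 3.97% lower. The lower count was 8 without control replicate 2 and 10 without control replicate 3. Of the 22 higher clusters, 17 had under 20% mC on the Xa, and of the 18 lower ones 16 had over 60%, beside 24 and 108 of all 137 clusters.

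Clusters higher on the Xi mostly had little methylation on the Xa. In an intron of Cited1, a transcriptional coactivator gene, 4 positions had 86.4, 66.7 and 73.4% mC on the Xi and 0.735, 1.97 and 4.17% on the Xa (adjusted p = 3.61e-09). In an intron of the longest form of Araf, a RAF kinase gene, 8 positions at least 28911 bp from the start sites used here had 83.6, 89.9 and 76.6% beside 13.7, 12.3 and 17.6% (adjusted p = 3.73e-12). In Smim9, 11 positions had 54.5, 56.1 and 56.4% beside 1.83, 2.62 and 1.18% (adjusted p = 5.21e-13).

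Of the clusters lower on the Xi, the largest difference was in a noncoding exon where Gk and Gm14767 overlap, with 64.1, 69.9 and 48.2% on the Xi against 92.7, 91.2 and 94.3% on the Xa. In the Bcor gene, 8 clusters with 83 positions between 12078598 and 12159078 on the X had means of 1.12 to 5.92% on the Xi and 0.0931 to 21.7% on the Xa, and 2 of them were called lower on the Xi. At 4 positions from 12140210 the Xi had 0.893, 0 and 3.41% and the Xa 25.6, 21.3 and 17.2% (adjusted p = 0.00141).

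**Figure D5:**
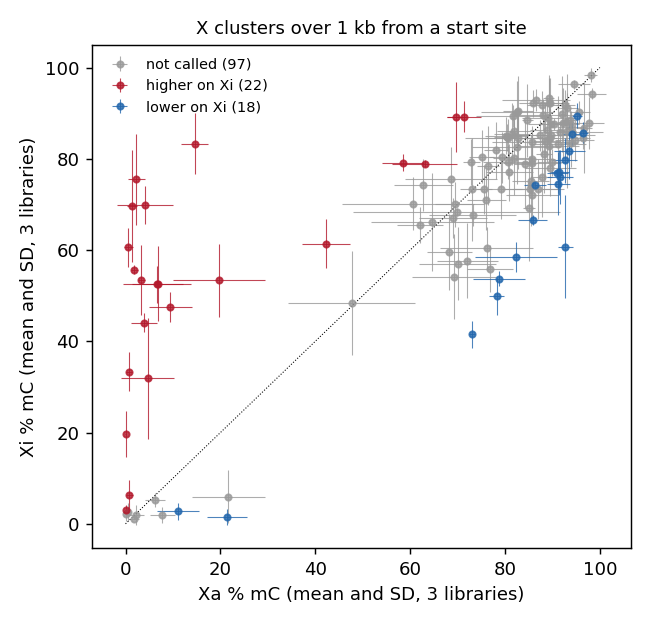
Xi % mC (y axis) against Xa % mC (x axis) of the 137 X clusters over 1 kb from a start site, with the mean and SD of the 3 control libraries, red for those called higher on the Xi, blue for lower and grey for neither. Most clusters sit near the dotted line of equal levels at the upper right, and 17 of the 22 red ones have under 20% on the Xa.

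Among single positions far lower on the Xi were 2 in Firre, a gene known to be transcribed from the Xi and to shape its structure. In the intron sequence above, the position at 50623177 had 0% mC on the Xi in 29, 39 and 49 calls and 88.6, 76.7 and 86.0% on the Xa in 35, 30 and 43 calls (adjusted p = 3.08e-14 by the limma-moderated model). The position at 50623202 had 0% on the Xi and 91.4, 100 and 88.4% on the Xa (adjusted p = 1.40e-17). The model gave all single positions 1 shared dispersion, so these p-values rest on counts of calls and not on the spread at the site. These 2 positions were read together and are not independent, and they were singled out after their values had been seen. Another, between genes near Gpr174 and singled out likewise, differed by more, with 0% on the Xi and 96.4% as the mean on the Xa. The pattern was not particular to Firre. Intergenic positions nearest Hypm, Magee2 and Gm14781 had means of 2.35, 0 and 0% on the Xi and 91.7, 86.1 and 84.9% on the Xa. Whether castaneus carries another base at any of these positions was not tested. Position by position, 430 of the 549 promoter positions were higher on the Xi and 1 lower, and over 5 kb from start sites 62 of 944 were higher and 51 lower. Of all 88829 autosomal positions, 0.641% were higher on castaneus and 0.7% lower. Among these, 48115 lay within 1 kb of a start site, at 3.79 and 3.86% mC. The share over far autosomal positions alone was not counted, so the 944 have no matched background.

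The allele difference was also measured in the Setdb1 depleted libraries. Over the 507 promoter positions covered in all 5 libraries, Xi minus Xa was 44.7, 42.9 and 41.3 points in the control libraries and 35.7 and 40.1 in the depleted ones. The groups did not overlap, with a depleted minus control difference of -5.07 points and p = 0.1 by an exact permutation test, the smallest p it allows. The Xi was at 47.8% ± 1.87 (SD, n = 3) in the control and 42.2% ± 3.08 (SD, n = 2) in the depleted libraries, and the Xa was at 4.84% ± 0.179 and 4.31% ± 0.0401. Leaving out each of the 5 libraries in turn gave differences between -7.40 (without depleted replicate 2) and -3.46 (without depleted replicate 1). Of all 68 tested promoters, 55 had a lower Xi mean in the depleted libraries, 18 had both depleted values below all control values and 2 had both above. Among the 62 called ones, which were called on the control values, these counts were 53, 18 and 2. The same counts were not made for autosomal promoters. Utp14a had 3.10 and 11.0% on the Xi in the depleted libraries, and Phf6 had 61.1 and 70.4%.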

How the data were processed

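The authors trimmed the reads, mapped them by Bismark to an mm10 genome whose strain differences were masked, split them by allele and extracted CpG calls with the Bismark methylation extractor, version 0.13.0 in the headers. The values they deposited are single calls, methylated or unmethylated, with no normalisation or coverage filter. From these, calls were summed per position, library and allele, and % mC was the methylated share. All 1599 X positions lay at CpGs of the GRCm38 reference. Start sites of all transcripts came from the GENCODE M21 basic annotation. A promoter was 1000 bp on either side of a start site of a protein-coding gene or, failing that, a long noncoding RNA gene. Positions were pooled over all start sites of a gene, including those inside it, as from 100768238 to 100774549 in Dlg3. With the 5′ end of each gene only, 58 X promoters were tested, and 54 were higher on the Xi and 0 lower.

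Each promoter or cluster was fitted with a quasi-binomial logistic model of the calls on library and allele, its dispersion moderated with limma 3.58.1 in R 4.3.3 and not under 1, and p-values were adjusted (Benjamini-Hochberg) over all features of the genome. Tested on simulated calls for castaneus against domesticus over 5101 promoters, it recovered 100, 79 and 24% of 200 promoters shifted by 1.5 on the logit scale at correlations of 0, 0.01 and 0.03 between calls, with 3 to 10 false calls. Libraries, not CpGs, were the replicates in the exact permutation tests. In the model the dispersion of each promoter leaned on a shared value with 19.0 prior degrees of freedom. Single positions, fitted alike, all took 1 shared dispersion of 2.95, so their p-values do not measure the spread at a site. Python 3.11.15 with numpy 2.4.6 and pandas 2.3.3 was used elsewhere. An early version let a coding start up to 2 kb away take a position from a nearer noncoding start, against the 1 kb above. It was corrected after its values had been seen, which left the X promoters and their levels as they were and moved the autosomal background slightly.

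Named promoters were those on the gene lists, the 10 with the largest called differences, those under 10% or over 60% on both alleles, the 5 with the largest SD on the Xi and the 8 with the most reads. Members and lists were chosen with earlier results of these data known. One of the named promoters is not reported here.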

Additional observations from a re-analysis of the deposited data

How the results depend on the processing

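The mean differences kept their direction under every other setting tried: Xi minus Xa at promoter CpGs ran from 40.9 to 44.0 points, over 5 kb away from -2.20 (all 5 libraries) to -1.08 (without control replicate 2), against autosomes from 41.0 to 44.0, mixed reads from 66.7 to 76.2 and fully methylated reads from 2.89 (at least 6 calls per read) to 9.19 (at least 3). With so few libraries the p-values of these could not pass 0.05 under any setting, so they say nothing of stability. Promoters higher on the Xi numbered 37 of 39 tested with more than 20 calls per position, and 63 to 68 with 1 library left out. Without the pairing of alleles by library (no replicate block) the promoter difference of 42.8 points had an exact permutation p of 0.1 and 62 promoters were called. With replicate numbers as a replicate block across the groups, depleted minus control was -5.92 points. The numbers share no stated origin.

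Among alternatives added after the data were seen, clusters of at least 6 positions gave 4 higher and 3 lower on the Xi of 24 tested, where 16.7% were higher beside 16.1% of all 137. Leaving out a library gave 17 to 20 higher and 8 to 21 lower, with the lower values without control replicates 2 and 3. Of 811 values for single promoters, 798 kept their direction and call, 10 lost the call and 3 changed sign, all at under 2 points and uncalled: Bcor ran from -0.347 (without control replicate 1) to 0.435 with 1 library left out and was -1.02 in a 2 kb window, and Jpx ran from -0.505 to 0.114 (without control replicate 2). With limma, Ccdc160, Klhl15, Nap1l3, Nlgn3 and Rab33a lost the call. The cause of these changes was not tested.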

Other observations

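Promoters with at least 3 positions on the Xi that were not among the tested genes numbered 38, with a median of 37.7% mC. Fewer than 3 of their positions were covered on both alleles, so no comparison was made, and Xa values are given where the Xa had at least 3 positions of its own. Kdm6a, a histone H3K27 demethylase gene known to escape silencing, had 0, 0.837 and 0% on the Xi over 9 positions and a mean of 0.224% on the Xa over 5. Chst7 had 0% in each library on the Xi over 3 positions and 2.18% ± 2.29 (SD, n = 3) on the Xa over 6. Zrsr2 had 1.07, 3.78 and 1.63% on the Xi over 11 positions, while its Xa had 14.3, 8.38 and 9.87% over 18. These were the 3 under 10% on the Xi, while 30 of the 38 lay between 20 and 80%. Pgk1, a glycolytic enzyme and a classic example of a silenced gene, had 26.0, 31.7 and 25.6% over 5 positions. Suv39h1, an H3K9 methyltransferase, had 17.6, 15.9 and 15.5% on the Xi and a mean of 0.187% on the Xa. Asmt had 97.7% ± 0.956 (SD, n = 3), and Rhox9 and Rhox2g had 95.4% ± 4.28 and 91.2% ± 1.51 on the Xi, with 82.9% ± 2.17 on the Xa of Rhox9.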
